A study of Mus musculus with 6 samples.

Results

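The transcription factor NRF2 (gene Nfe2l2), its inhibitor KEAP1 (Keap1) and 8 classical NRF2 target genes (Nqo1, Hmox1, Txnrd1, Srxn1, Gclc, Gclm, Ephx1 and Prdx1) were followed in mouse liver. The 10 genes were chosen by name from the 20673 genes of the deposited tables, and all 10 passed the filter on low counts that left 13105 genes for testing. Liver RNA from 6 C57BL/6J mice was sequenced in 1 library per mouse, 3 fed a regular diet (RD) and 3 fed a high-cholesterol diet (HCD) for 3 days. The HCD contained added cholesterol, cocoa butter and sodium cholate, a bile salt that promotes cholesterol uptake, and more fat than the RD. Cholesterol, fat and cholate therefore cannot be told apart in any difference between the diets. Livers were collected at the end of the 3 days from young adults of around 3 months, and both sexes were used, but the sex of each liver is not stated. The comparison asks how the diet alone alters liver RNA, in a study of cholesterol and the outcome of sepsis.

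NRF2 switches on genes for antioxidant and detoxifying enzymes. At rest KEAP1 holds NRF2 in the cytoplasm and hands it to a CUL3 ubiquitin ligase for degradation, and electrophiles or oxidants that modify cysteines of KEAP1 let newly made NRF2 escape. NRF2 then pairs with a small MAF protein and binds antioxidant response elements near its targets, while BACH1 competes for the same elements. The liver uses these enzymes to make glutathione, to keep thioredoxin and peroxiredoxins reduced, and to dispose of quinones, epoxides and haem. The activity of NRF2 is set largely by protein stability, which RNA levels do not measure.

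Promoter sequence from RefSeq (GRCm38.p6, 250 bases before to 50 bases after the transcription start) was matched by symbol for 8 of the 10 genes, in 10 windows because Txnrd1 has several starts. Hmox1 and Gclc had no entry. Each window was searched on both strands for the core of the antioxidant response element, spelled TGACNNNGC or TGAGNNNGC. It was found in 5 of the 8 genes, namely Nfe2l2, Txnrd1 (in 1 of its windows), Srxn1, Gclm and Prdx1, and not in Keap1, Nqo1 or Ephx1. Of all 32851 promoter windows in the table, 27.8% held it, and of all genes with a window, 30.8%. In Srxn1 and Prdx1 a match shares bases with an AP-1 element (TGACTCA or TGAGTCA). The 250 bases upstream of the start are shown for the 3 target genes with a match at a single annotated start. Those of Nqo1, which had the largest fold change of the 10 genes, are shown as a promoter without a match. Sequences read in the direction of transcription and capitals mark the matches, which lie on the opposite strand (as reverse complements) except for the Srxn1 match nearest its start. The Srxn1 sequence is chr2:152105274-152105523 (plus strand), that of Gclm is chr3:122245307-122245556 (plus strand), that of Prdx1 is chr4:116685349-116685598 (plus strand) and that of Nqo1 is chr8:107403206-107403455 (minus strand).
Srxn1: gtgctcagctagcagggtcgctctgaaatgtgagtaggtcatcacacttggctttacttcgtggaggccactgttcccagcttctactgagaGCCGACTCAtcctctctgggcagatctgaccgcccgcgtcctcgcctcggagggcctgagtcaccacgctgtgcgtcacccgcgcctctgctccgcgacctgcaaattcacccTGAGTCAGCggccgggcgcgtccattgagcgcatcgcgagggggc
Gclm: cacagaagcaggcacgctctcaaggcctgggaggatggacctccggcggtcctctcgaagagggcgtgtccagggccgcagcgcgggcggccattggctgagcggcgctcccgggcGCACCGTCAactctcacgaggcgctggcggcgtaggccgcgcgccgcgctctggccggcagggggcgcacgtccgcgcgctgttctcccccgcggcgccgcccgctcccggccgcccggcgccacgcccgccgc
Prdx1: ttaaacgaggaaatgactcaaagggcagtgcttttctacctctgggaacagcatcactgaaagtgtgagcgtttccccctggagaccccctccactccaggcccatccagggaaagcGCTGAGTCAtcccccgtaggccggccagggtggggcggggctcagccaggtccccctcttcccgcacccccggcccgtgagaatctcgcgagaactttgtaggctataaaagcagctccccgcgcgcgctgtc
Nqo1: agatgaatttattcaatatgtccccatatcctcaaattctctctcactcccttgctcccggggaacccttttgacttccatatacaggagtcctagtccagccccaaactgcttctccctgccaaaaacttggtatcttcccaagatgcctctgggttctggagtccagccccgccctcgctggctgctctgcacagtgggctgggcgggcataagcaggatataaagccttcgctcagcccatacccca
Matches began 158 and 45 bases before the start in Srxn1 (positions -158 and -45), at position -134 in Gclm and at position -133 in Prdx1. Srxn1 held a further match at position 29 and Prdx1 at position 16, both downstream of the start and not shown. These matches are a description of letters in a short window, and elements farther from the start were not searched.

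The total count per library ran from 13771630 to 23129576. CPM are counts relative to the library total. On these totals without scaling, 3 reads, the limit that a count of 0 allows, stood for 0.130 to 0.218 CPM. The levels per liver used scaled totals, on which this floor was not computed. This floor covers counting error only. Levels per liver are given in CPM scaled by TMM, which corrects for differences in library composition, and folds are edgeR estimates of HCD over RD. A gene was called changed when its edgeR adjusted p was under 0.05. The biological coefficient of variation over all genes was 27.8%. HCD replicate 1 stood apart from the other libraries in holding 5032 counts of Xist, the RNA of the inactive X chromosome in female cells, where the other 5 held 0. Several results, but not all, are also given without it. Hepatocyte markers such as Alb (albumin) were abundant in every library, with a sum of 8 markers from 95780 to 128600 CPM with RD and from 101000 to 140700 CPM with HCD. Alb made up most of this sum. Of the 8 markers 6 had a fold change below 1 (median log2 fold change -0.25, and -0.16 without HCD replicate 1). DESeq2 called 1 lower, Fgb (fibrinogen beta chain), and 1 higher, Ttr (transthyretin), against 8.53% of all genes in either direction. The edgeR test called neither.

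None of the 10 genes passed the edgeR test at an adjusted p under 0.05, against 3.27% of all genes tested in either direction and 1.95% that were higher with HCD. The fold change was above 1 for 9 of the 10 and below 1 for Txnrd1, with a median log2 fold change of 0.39 where that of all genes tested was 0.0074. At an unadjusted edgeR p of 0.05 or less there were 6 of the 10 (Nqo1, Ephx1, Gclm, Gclc, Prdx1 and Nfe2l2), all higher with HCD, against 20.9% of all genes in either direction and 11.1% in that direction. DESeq2 on the same genes called 3 of the 10 (Nqo1, Ephx1 and Gclm), all higher, against 8.53% of all genes in either direction and 4.85% in that direction. In 5 of the 10 (Keap1, Nqo1, Gclm, Ephx1 and Prdx1) each HCD liver was above each RD liver, where 27.6% of all genes had diets that did not overlap in one direction or the other and 14.0% in that direction. In FPKM the diets also overlapped for Keap1, which left 4 of the 10. The shares of all genes were computed in CPM only. With 3 livers a diet the exact two-sided permutation test can reach no p below 0.1. Without HCD replicate 1, edgeR again called 0 of the 10 and their median log2 fold change was 0.45.

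**Figure D1:**
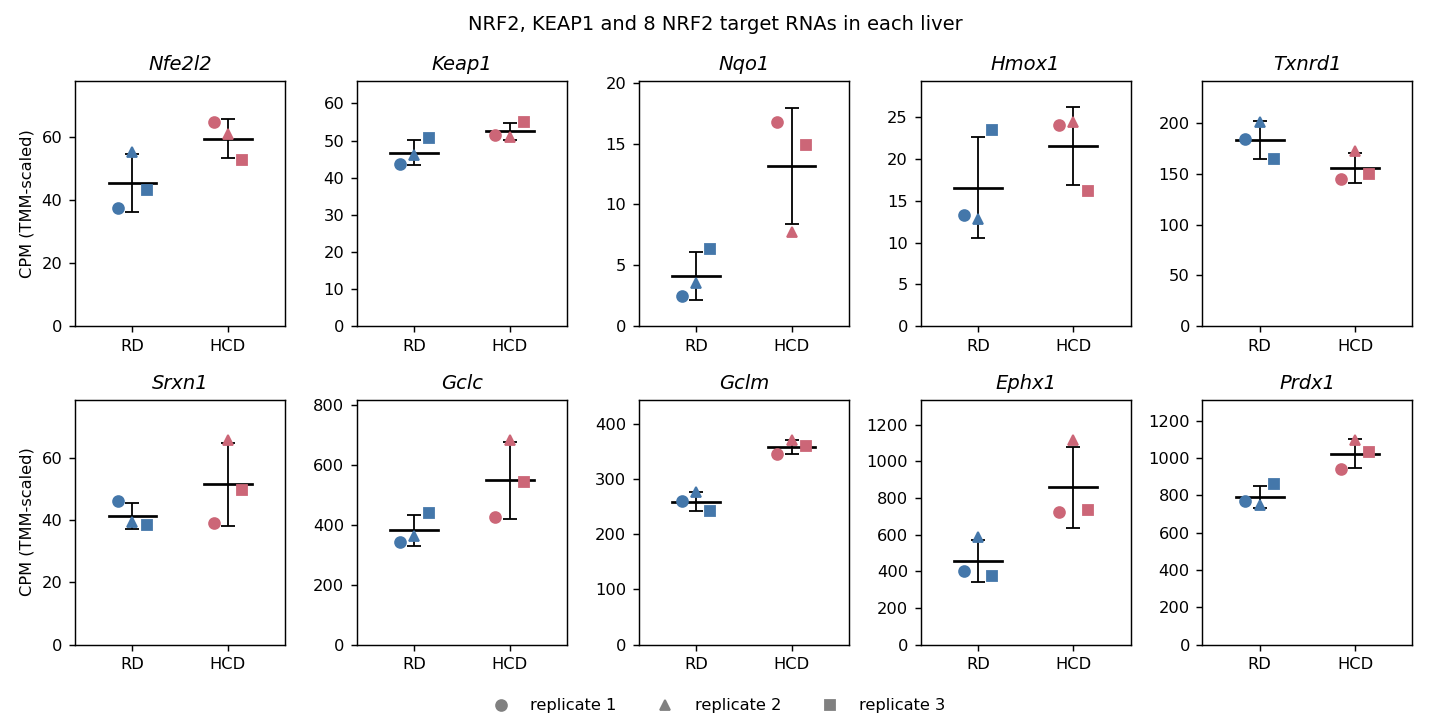
Level of each gene in each liver, in TMM-scaled CPM on axes that start at 0, with RD in blue and HCD in red. Horizontal lines are means and error bars SD (n = 3). All HCD points sit above all RD points for Keap1, Nqo1, Gclm, Ephx1 and Prdx1.

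Nfe2l2 (chr2:75675513-75704641, minus strand, GRCm38), which encodes NRF2, was measured at 37.5, 55.4 and 43.2 CPM in the RD livers and at 64.9, 61.1 and 52.7 CPM in the HCD livers. HCD replicate 3 lay below RD replicate 2, so the diets overlapped by that pair. The mean was 45.4 ± 9.15 CPM with RD and 59.5 ± 6.23 CPM with HCD (SD, n = 3), and the log2 fold change of 0.39 (SE 0.17, 95% interval 0.0055 to 0.78) had an edgeR adjusted p of 0.233. Keap1 (chr9:21229730-21239361, minus strand), the adaptor that delivers NRF2 to degradation, stood at 43.7, 46.0 and 50.6 CPM with RD and at 51.5, 50.9 and 55.0 CPM with HCD. Its HCD livers were all above its RD livers, but by as little as 50.9 against 50.6 CPM. The log2 fold change was 0.17 (SE 0.12, 95% interval -0.11 to 0.45) with an edgeR adjusted p of 0.476, and it was 0.10 on library sizes alone. Keap1 shares 510 exon bases with the antisense gene Gm16754, which had 42 counts over the 6 libraries against 5170 for Keap1, and whether the counting used strand is not stated.

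The factor was also set against its inhibitor within each liver. The ratio of Nfe2l2 to Keap1 in FPKM, which divides by gene length, was 1.06, 1.49 and 1.06 in the RD livers and 1.56, 1.48 and 1.18 in the HCD livers. The diets overlapped, and the difference in mean log2 ratio of 0.24 had an exact permutation p of 0.3 (two-sided, 0.6 adjusted over the 2 ratios tested). With 1 liver left out the difference ran from 0.15 (without RD replicate 3) and 0.16 (without RD replicate 1) to 0.40 (without RD replicate 2), and was 0.36 without HCD replicate 3.

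Gclc and Gclm encode the catalytic and modifier subunits of glutamate-cysteine ligase, the enzyme of the first step in glutathione synthesis. Gclc (chr9:77754535-77794485, plus strand) was at 342, 364 and 441 CPM with RD and at 426, 683 and 542 CPM with HCD. HCD replicate 1 lay below RD replicate 3, and the remaining HCD livers were above all RD livers. The log2 fold change was 0.52 (SE 0.20, 95% interval 0.060 to 0.99) with an edgeR adjusted p of 0.192, and it was 0.33 without HCD replicate 2 and 0.68 without HCD replicate 1 (edgeR adjusted p 0.0861).

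Gclm (chr3:122245557-122270732, plus strand), whose promoter holds a match at -134, was at 259, 277 and 241 CPM with RD and at 345, 370 and 359 CPM with HCD. The diets were well separated and each was tight, with 259 ± 17.8 CPM against 358 ± 12.7 CPM (SD, n = 3). Its log2 fold change of 0.47 (SE 0.13, 95% interval 0.16 to 0.77) had an adjusted p of 0.0998 by edgeR and 0.0150 by DESeq2. Gclm is uncertain where reads could be split, since a 282-base stretch of its transcript is 99.6% identical to the abundant Ppia (25500 counts over the 6 libraries, against 31533 for Gclm) and a 244-base stretch is identical to the pseudogene Gm10123 (15828 counts).

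The subunits were set against each other within each liver. The ratio of Gclc to Gclm in FPKM was 2.20, 2.20 and 3.06 with RD and 2.06, 3.08 and 2.52 with HCD, so the diets overlapped over most of their range. The difference in mean log2 ratio was 0.038 with an exact permutation p of 0.9 (two-sided, adjusted 0.9), and its sign turned without RD replicate 1 (-0.040), RD replicate 2 (-0.042) or HCD replicate 2 (-0.11), with 0.20 without RD replicate 3.

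Txnrd1, Srxn1 and Prdx1 belong to the thioredoxin and peroxiredoxin system. Peroxiredoxin 1 reduces peroxides, sulfiredoxin 1 (Srxn1) rescues peroxiredoxins that have been over-oxidised, and thioredoxin reductase 1 (Txnrd1) uses NADPH to recharge thioredoxin. Prdx1 and Srxn1 had fold changes above 1 and Txnrd1 below 1, none of them past the edgeR threshold, and differences between these genes were not tested.

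Prdx1 (chr4:116685544-116700822, plus strand) was at 771, 749 and 860 CPM with RD and at 944, 1096 and 1036 CPM with HCD. All HCD livers were above all RD livers. The log2 fold change was 0.37 (SE 0.15, 95% interval 0.023 to 0.72) with an adjusted p of 0.211 by edgeR and 0.0899 by DESeq2. Prdx1 has near-identical processed copies, the most counted of which, Gm21399, is 98.3% identical and had 529 counts over the 6 libraries.

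Srxn1 (chr2:152105516-152111376, plus strand), with the most matches to the element of any of the 8 promoters, was at 46.1, 39.6 and 38.5 CPM with RD and at 39.1, 65.7 and 49.7 CPM with HCD. HCD replicate 1 lay within the range of the RD livers, while the other two HCD livers were above it. The log2 fold change of 0.31 (SE 0.20, 95% interval -0.13 to 0.76) had an edgeR adjusted p of 0.399, and it was 0.093 without HCD replicate 2 and 0.48 without HCD replicate 1. Txnrd1 (chr10:82833951-82897712, plus strand) was the one gene of the 10 with a lower mean under HCD, at 184, 202 and 165 CPM with RD and 145, 173 and 150 CPM with HCD. HCD replicates 1 and 3 were below every RD liver and HCD replicate 2 was within their range. Its log2 fold change of -0.23 (SE 0.14, 95% interval -0.56 to 0.091) had an edgeR adjusted p of 0.386, and it was below 0 in all 16 alternatives but only -0.11 (edgeR adjusted p 0.733) with the length trend removed.

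Nqo1, Ephx1 and Hmox1 encode enzymes that dispose of quinones, epoxides and haem. Nqo1 (chr8:107388225-107403206, minus strand), NAD(P)H quinone dehydrogenase 1 and a widely used readout of NRF2 activity, had the largest fold of the 10 and the lowest level. It was at 2.50, 3.56 and 6.30 CPM with RD and at 16.8, 7.72 and 14.9 CPM with HCD, from 52, 51 and 145 reads and 332, 112 and 184 reads. All HCD livers were above all RD livers, with HCD replicate 2 nearest to RD replicate 3. Nqo1 was 3.17-fold higher with HCD (log2 fold change 1.67, SE 0.40, 95% interval 0.75 to 2.59), with an adjusted p of 0.0639 by edgeR and 0.00119 by DESeq2. Without HCD replicate 2 the log2 fold change was 1.93 and the edgeR adjusted p 0.0494, which passed the threshold, and without HCD replicate 1 they were 1.45 and 0.124.

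Ephx1 (chr1:180976210-181020904, minus strand), microsomal epoxide hydrolase, was at 404, 587 and 375 CPM with RD and at 723, 1114 and 734 CPM with HCD. All HCD livers were above all RD livers, and replicate 2 was the highest within each diet. Ephx1 was 1.88-fold higher with HCD (log2 fold change 0.91, SE 0.24, 95% interval 0.36 to 1.47), with an adjusted p of 0.0836 by edgeR and 0.00248 by DESeq2. Without HCD replicate 1 the log2 fold change was 1.02 (edgeR adjusted p 0.0757). Ephx1 also hydrolyses drug epoxides and is known as a target of xenobiotic receptors as well as of NRF2.

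Hmox1 (chr8:75093621-75100589, plus strand), haem oxygenase 1, is made in the liver mainly by Kupffer cells, the resident macrophages, at rest. It was at 13.4, 12.8 and 23.5 CPM with RD and at 24.1, 24.5 and 16.1 CPM with HCD. RD replicate 3 and HCD replicate 3 each lay with the livers of the opposite diet, so the diets overlapped. The log2 fold change was 0.38 (SE 0.27, 95% interval -0.24 to 1.00) with an edgeR adjusted p of 0.463, and with 1 liver left out it ran from 0.22 (without RD replicate 2) and 0.24 (without RD replicate 1) to 0.72 (without RD replicate 3, edgeR adjusted p 0.156).

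The summed level of 10 Kupffer cell markers moved with Hmox1 in part. It was 147, 184 and 250 CPM in the RD livers and 458, 410 and 210 CPM in the HCD livers. In both measures RD replicate 3 was the highest of its diet and HCD replicate 3 the lowest of its diet. The same held for the sum of 3 leukocyte markers (5.53, 7.05 and 9.16 CPM with RD, 11.4, 7.58 and 6.65 CPM with HCD). Of the Kupffer cell markers 10 of 10 had a fold change above 1 (median log2 fold change 0.89, and 0.66 without HCD replicate 1). None passed the edgeR test, and none was at 0 in any liver. At an unadjusted edgeR p up to 0.05 there were 5, and DESeq2 called 3, all higher. The shares of all genes in that direction were 11.1% and 4.85%. Clec4f, a lectin that defines Kupffer cells, ran from 43.1 to 67.2 CPM with RD and from 54.0 to 120 CPM with HCD. Of 8 stellate cell markers 8 had a fold change above 1 (median log2 fold change 0.50, and 0.28 without HCD replicate 1). None was called by edgeR or DESeq2. At an unadjusted edgeR p up to 0.05 there were 2, both higher, against 11.1% of all genes in that direction. The sum of the 8 was 339, 342 and 391 CPM with RD and 607, 377 and 494 CPM with HCD, which overlapped. Cholangiocyte markers had a fold change above 1 in 5 of 6 (median log2 fold change 0.62, and 0.57 without HCD replicate 1). Endothelial cell markers had one in 6 of 8 (median 0.24, and -0.026 without HCD replicate 1). None of either list was called by edgeR, and DESeq2 called 1 endothelial marker, higher, against 4.85% of all genes in that direction. The part of these cell types in the Hmox1 values was not tested. In whole liver, more cells of a type and more RNA per cell cannot be told apart.

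**Figure D2:**
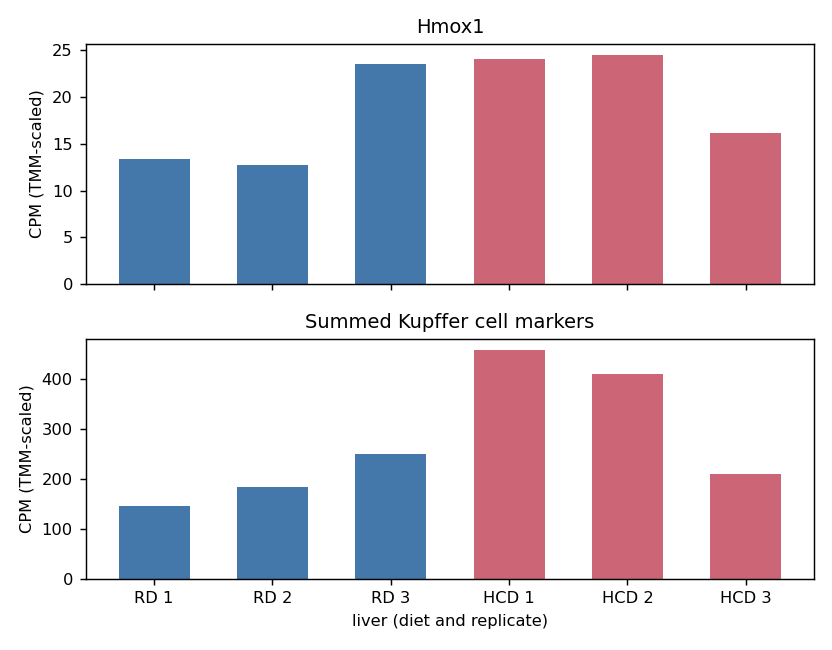
Hmox1 (upper bars) and the summed level of 10 Kupffer cell markers (lower bars) in each liver, in TMM-scaled CPM, with RD in blue and HCD in red. Hmox1 is at 23.5 CPM in RD replicate 3 and 16.1 CPM in HCD replicate 3, and the marker sum is at 250 and 210 CPM in the same livers.

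Each HCD liver was also set against the range of the RD livers. In HCD replicate 1, 7 of the 10 genes were above the highest RD liver, in HCD replicate 2 there were 9, and in HCD replicate 3 there were 7. Of all genes tested, 35.0%, 31.7% and 35.1% were above the highest RD liver in the same 3 livers. These counts describe single livers and were not tested. Txnrd1 was below the lowest RD liver in HCD replicates 1 and 3, as were 33.7% and 36.5% of all genes tested. The genes that did not leave the RD range were Srxn1 and Gclc in HCD replicate 1, Txnrd1 in HCD replicate 2, and Nfe2l2 and Hmox1 in HCD replicate 3.

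**Figure D3:**
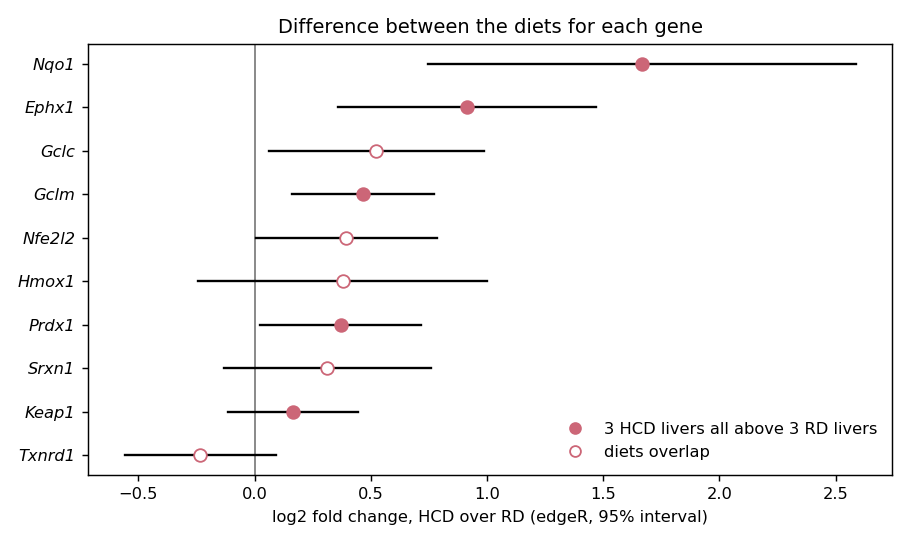
Log2 fold change of each gene, HCD over RD, with its 95% interval from edgeR (n = 3 livers a diet). Filled points mark genes whose HCD livers were all above their RD livers. Nqo1 is the farthest to the right at 1.67 and Txnrd1 is the one point left of 0, at -0.23.

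On the FPKM scale, where levels can be compared between genes, Prdx1 and Ephx1 led with RD at 381 ± 36.3 and 340 ± 79.6 FPKM (SD, n = 3). Their ranges over the RD livers overlapped. Gclc followed at 149 ± 23.2 FPKM, Gclm at 60.1 ± 2.90 FPKM and Txnrd1 at 37.8 ± 3.05 FPKM, each without overlap with the next. Srxn1 (21.4 FPKM), Nfe2l2 (17.4 FPKM), Keap1 (14.6 FPKM) and Hmox1 (13.9 FPKM) overlapped from one to the next, and Nqo1 was lowest at 3.90 ± 1.93 FPKM. With HCD, Ephx1 was at 650 ± 153 FPKM and above Prdx1 at 500 ± 28.1 FPKM in range. Nqo1 reached 12.6 ± 4.80 FPKM and its range met that of Keap1 at 16.6 ± 0.94 FPKM. Txnrd1 and Srxn1, apart with RD, overlapped with HCD, and Keap1 and Hmox1, which overlapped with either diet, exchanged places.

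The difference in Nqo1 was positive in all 16 alternatives to the test, with a log2 fold change from 1.40 to 2.12, as it was for Ephx1 from 0.67 to 1.13 and for Gclm from 0.40 to 0.58. None of the 10 genes changed sign under any of them. Nqo1 was called by DESeq2, by edgeR with no filter on low counts and without HCD replicate 2, Ephx1 by DESeq2 and with no filter, and Gclm by DESeq2. The other 7 genes were called by none.

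**Figure D4:**
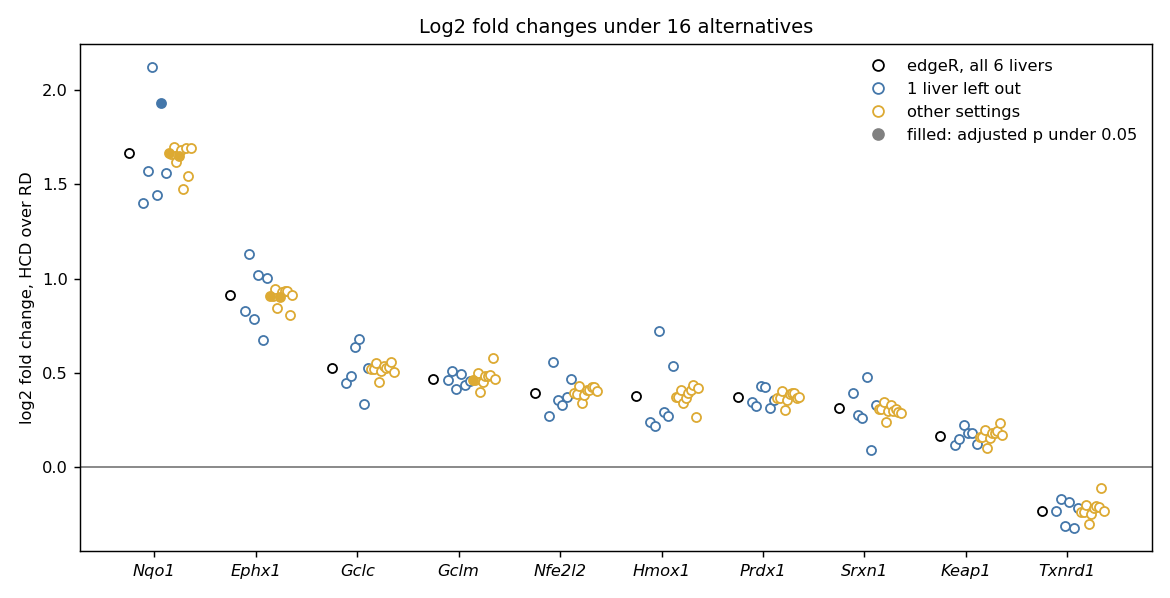
Log2 fold change of each gene, HCD over RD, with all 6 livers (black), with 1 liver left out (blue) and under other settings (yellow), with filled points where the adjusted p was under 0.05. Points stay on one side of 0 for every gene, and filled points appear for Nqo1, Ephx1 and Gclm.

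A list of 37 other NRF2 targets was set beside the classical ones, of which 36 were in the tables and 35 were tested. The list covers glutathione transferases, NADPH production, iron storage, bilirubin and carbonyl reduction and efflux pumps. Of the 35, 8 rose and none fell by edgeR at an adjusted p under 0.05. Of all genes, 3.27% were called in either direction and 1.95% were higher. A fold change above 1 was found for 30 of the 35, and for 6643 of all 13105 genes. DESeq2 called 13 of the 35, all higher, against 4.85% of all genes in that direction, and no gene of the list was lower at an unadjusted edgeR p of 0.05 or less. The median log2 fold change was 0.42, against 0.0074 for all genes tested. The 8 were the glutathione transferases Gsta2, Gsta4, Gstm1 and Gstm3, the cytochrome P450 Cyp2a5, carbonyl reductase Cbr1, biliverdin reductase B (Blvrb) and the ferritin light chain Ftl1.

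Gsta2 (chr9:78331018-78355788, minus strand) rose most of the 8, from 11.7, 13.7 and 24.5 CPM with RD to 58.0, 49.2 and 101 CPM with HCD (log2 fold change 2.05, SE 0.35, edgeR adjusted p 0.0253). Gstm3 (chr3:107963696-107969283, minus strand) was at 41.8, 62.9 and 98.0 CPM with RD and at 128, 253 and 334 CPM with HCD (log2 fold change 1.82, SE 0.39, edgeR adjusted p 0.0473). Cyp2a5 (chr7:26835305-26843548, plus strand), which oxidises coumarin and bilirubin, was at 215, 187 and 212 CPM with RD and at 750, 445 and 627 CPM with HCD (log2 fold change 1.57, SE 0.21, edgeR adjusted p 0.0124). In all 3 genes each HCD liver was above each RD liver. Of the 16 alternatives Gsta2 was called in 13, Gstm3 in 8 and Cyp2a5 in 14. The Gstm3 call was lost with limma at either pseudocount, with the length trend removed and on leaving out any liver but HCD replicate 1. Reads may be shared with similar genes, since Gsta2 is 97.2% identical to Gsta1 over 870 bases, Cyp2a5 98.2% identical to Cyp2a4 over 1739 bases, and Gstm3 97.9% identical to the pseudogene Gm8834 over 567 bases and 92.9% identical to Gstm2 over 212 bases.

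The count of 8 was 0 without RD replicate 1, 0 without RD replicate 2, 4 without RD replicate 3, 9 without HCD replicate 1, 5 without HCD replicate 2 and 2 without HCD replicate 3. Over all genes the 428 called by edgeR became 36, 51, 146, 335, 333 and 103 in the same order, so calls were lost in the whole table too. HCD replicate 1 also stood apart in 2 genes of the list, named here after their values were seen. Gstp1 was at 285 CPM there and at 1799 to 3009 CPM in the other 5 livers, and its log2 fold change of -0.18 was 0.33 without that liver. Abcc4 was at 10.6 CPM there and at 0.87 to 4.62 CPM elsewhere, and its log2 fold change of 1.58 was 0.71 without it. Neither gene was called with or without HCD replicate 1. The summed level of 5 red blood cell markers was 163, 138 and 239 CPM with RD and 177, 468 and 452 CPM with HCD, so the diets overlapped (exact permutation p 0.2). The haemoglobin genes Hba-a1 (15.4 to 36.7 CPM with RD, 77.1 to 176 CPM with HCD, 5.30-fold) and Hbb-bs (14.9 to 38.6 and 80.6 to 167 CPM, 4.87-fold) rose by edgeR, 2 of the 5 markers against 1.95% of all genes in that direction. DESeq2 also called Hbb-bt (1.33 to 4.47 and 5.56 to 20.8 CPM, 6.08-fold), 3 of the 5 against 4.85% of all genes in that direction. In these 3 genes each HCD liver was above each RD liver, as in 14.0% of all genes. Alas2, which supplied much of the RD sum, was at 8.24 CPM in HCD replicate 1 and at 97.0 to 153.7 CPM in the other livers (log2 fold change -0.70, not called). Their part in Blvrb and Ftl1, which red cell precursors also express, was not tested.

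Of 17 regulators and partners of NRF2, all tested, none was called by edgeR, with 2 higher (Maff and Crebbp) and 1 lower (Chd6) at an unadjusted p of 0.05 or less, against 20.9% of all genes. Of the 17, 12 had a fold change below 1, with a median log2 fold change of -0.10. DESeq2 called 1 of them, against 8.53% of all genes. This was Maff, a small MAF partner of NRF2, named here after its values were seen. It was at 1.68, 1.88 and 2.17 CPM with RD and at 6.12, 3.93 and 3.32 CPM with HCD, from 27 to 121 reads. Its log2 fold change by edgeR was 1.22 (SE 0.36, edgeR adjusted p 0.107), and 0.92 without HCD replicate 1 (edgeR adjusted p 0.250). Cul3, the ligase scaffold that works with KEAP1, and Bach1, the competitor of NRF2, passed neither test.

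**Figure D5:**
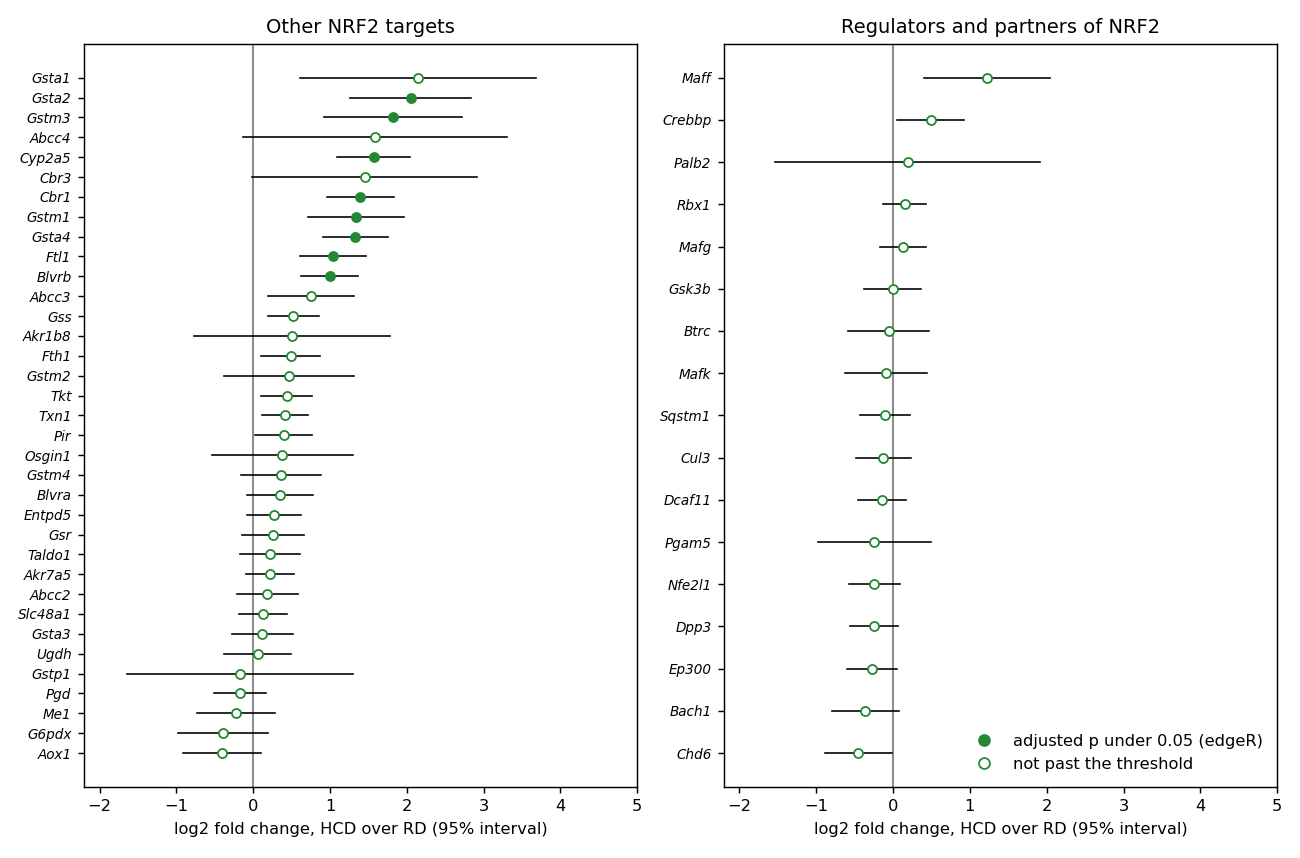
Log2 fold change, HCD over RD, with 95% intervals from edgeR for 35 other NRF2 targets (left) and 17 regulators and partners of NRF2 (right). Filled points had an adjusted p under 0.05, which holds for 8 genes on the left, all higher with HCD, and for none on the right.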

How the data were processed

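RNA counts of 10 NRF2 pathway genes were compared between 3 HCD and 3 RD livers, with groups and replicate numbers taken from the sample labels. The authors deposited read counts per gene, whole numbers without normalization, for 20673 genes, and FPKM values whose divisor is not stated and whose implied totals were 59.0% to 72.6% of the counts. The authors also deposited columns of their own comparison, as log2 fold change and as p-values, and these were left out. The submitters' processing notes list STAR, HTSeq, DESeq2, edgeR and GRCm39 without roles or versions. Gene lengths implied by counts and FPKM matched GENCODE M21 (GRCm38) within 0.1% for 19889 of 20666 genes (96.2%), and coordinates are from M21.

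Counts were filtered with filterByExpr by diet, scaled with TMM (factors 0.886 to 1.07) and tested in edgeR 4.0.16 (R 4.3.3) by quasi-likelihood, with Benjamini-Hochberg adjustment over 13105 genes, after testing on simulated data. Intervals are 95%. Alternatives used DESeq2 1.42.0, limma 3.58.1 on log2(FPKM + 1) and log2(FPKM + 0.1), other scalings and filters, a length correction, other thresholds and each liver left out. Exact permutation tests used log2(CPM + 0.5) or log2 ratios. Copies were found with minimap2 2.31, at 90% identity or more over at least 200 bases.

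The genes and lists were chosen with earlier results of these data known. Every gene of the 10 was named, with the 3 largest rises and falls among called genes of both lists (no gene fell). Libraries of one diet differed beyond sampling noise, so none was counted as a duplicate.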

Additional observations from a re-analysis of the deposited data

How the results depend on the processing

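None of the 10 genes reversed in any of 16 alternatives, and among called genes of the other lists the 3 named ones kept their direction. The number of the 10 genes called, 0 by edgeR, was 3 by DESeq2, 2 with no filter on low counts and 6 by unadjusted p up to 0.05, and 0 to 1 with each liver left out. The number of other NRF2 targets called, 8, was 13 by DESeq2, 5 by limma with either pseudocount, 5 with the length trend removed, 15 by unadjusted p, 0 at an adjusted p under 0.01 and 0 to 9 with each liver left out. For NRF2 regulators the count of 0 was 1 by DESeq2 and 3 by unadjusted p. Over all genes the 428 called became 1118 by DESeq2, 649 with no filter, 245 with the length trend removed, 2739 unadjusted, 40 at an adjusted p under 0.01 and 36 to 335 with each liver left out. With library sizes alone 158 genes were higher and 161 lower, against 255 and 173. The difference in log2 ratio of Gclc to Gclm, 0.038, reversed to -0.040 without RD replicate 1, -0.042 without RD replicate 2 and -0.11 when HCD replicate 2 was left out, and its highest value was 0.20, without RD replicate 3. The causes were not tested.

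Same-numbered livers of the diets did not deviate together (correlations -0.084, 0.12 and -0.030), so the numbers were not treated as pairs, and not every liver correlated best with its own number. With the replicate number as a block, 136 genes were called over all genes, 0 of the 10 and 7 other NRF2 targets. With 3 livers a diet, spread limits the test: intervals of the 10 genes are as wide as 0.75 to 2.59 (Nqo1, from 51 to 332 reads a library).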
